A study of Mus musculus with 24 samples.

Results

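Short interspersed nuclear elements (SINEs) were followed locus by locus in the RNA of naive mouse embryonic stem cells (ESCs). The members are all loci that the repeat catalogue of HOMER places in the class SINE, chosen by name alone: 1533009 of 5147736 repeat loci, or 29.8%, in 37 families and 7 superfamilies. Alu, the catalogue's name for mouse B1 elements and their relatives, holds 574557 loci in 16 families, B4 holds 397726, B2 372923, MIR 120436 and ID 64047. The Deu and tRNA superfamilies are small, with 1702 and 1618 loci. Families range from B3 with 148427 loci to FAM with 117.

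SINEs are short retrotransposons that encode no protein and are copied by the enzymes of LINE elements. B1 descends from the RNA of the signal recognition particle, and B2, B4, ID and MIR carry a tRNA-related head. A and B boxes inside a SINE let RNA polymerase III start transcription within the element. Most copies sit within or beside genes, so that their sequence is also read as part of longer RNA polymerase II transcripts. B1, B2, B4 and ID arose in rodents or expanded there, while MIR, AmnSINE and LFSINE copies are old and shared widely among mammals or beyond.

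The study compared 12 groups of 2 libraries, 24 in all, in 6 separately normalised tables of total RNA depleted of ribosomal RNA. E14 ESCs in 2i/LIF medium were sorted by TMRM, a dye taken up with the mitochondrial membrane potential (ΔΨm), into low-ΔΨm cells, the spontaneous quiescent ESCs (qESCs), and high-ΔΨm cells. In 4 other tables Mat2a siRNA was set against control siRNA (siCtr), the fatty acid oxidation inhibitor etomoxir (ETO, FAOi) against water, a small-molecule MYC inhibitor (MYCi) against DMSO, and low-ΔΨm cells with 50 µM S-adenosylmethionine (SAM) against those with 25 µM, with no low-ΔΨm library without SAM in that table. The last table sets Eed-/- (null) against Eed fl/- (heterozygous, Het) ESC lines, derived on feeder cells from 129/S1 blastocysts of crosses with Protamine CRE males, with exon 7 as the floxed part. Mat2a makes SAM, and Eed is a core subunit of polycomb repressive complex 2. The methods call the 2 libraries of a group independent biological replicates without naming the cultures, so each p-value covers the spread between these samples only.

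Neither SINE consensus sequences nor single loci could be printed, since a locus name here carries only a catalogue number. To show what a tRNA-related head looks like, Bc1, a rodent RNA of polymerase III from which ID elements derive, is given from the GENCODE transcripts of GRCm38. It lies at chr7:144914470-144914637 on the plus strand, and its capitals mark an A box and a B box.
Bc1: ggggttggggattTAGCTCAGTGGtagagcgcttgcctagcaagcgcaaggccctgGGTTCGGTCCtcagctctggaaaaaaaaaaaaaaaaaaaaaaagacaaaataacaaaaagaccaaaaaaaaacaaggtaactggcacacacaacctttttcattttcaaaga
In Bc1 the A box lies at positions 14 to 24 and the B box at positions 57 to 66, with no overlap. Searched by their usual consensus on both strands, these boxes have a match in transcripts of 10.3% and 5.41% of the 55450 genes with a sequence, and a match is a description of letters only.

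Libraries had 26.9 to 63.4 M fragments over genes, estimated from the steps between low FPKM values (fragments per kilobase of a feature, scaled to library size). The repeat and gene values of a library share 1 divisor, whose normalisation factors are not stated, and genes as a whole lay lower in some groups. In water replicate 2 the estimated divisor was 34.7 M, below its 39.1 M fragments over genes, so it is not taken as a plain count of fragments. It was 43.7 and 42.7 M with siCtr and 63.1 and 87.1 M with Mat2a siRNA. The median gene stood 0.41 and 0.36 above the table's centre (log2) in siCtr and 0.10 and 0.64 below it after Mat2a siRNA, and its position was 0.22 and 0.59 with water against -0.38 and -0.40 with ETO, and 0.43 and 0.35 with DMSO against -0.48 and -0.28 with MYCi. In the sorted cells it lay between -0.10 and 0.09 and in the Eed lines between -0.09 and 0.19, whereas at 25 µM SAM it was 0.41 and 0.03 and at 50 µM 0.05 and -0.48. Results for superfamilies, families, counts of loci and gene lists are therefore given as deposited and again after dividing each library by its median gene, single loci as deposited, and which scale follows the RNA per cell was not tested. The targeted genes matched their labels: Mat2a had an FPKM of 48.5 and 45.1 with siCtr and 13.5 and 9.44 with Mat2a siRNA (log2 -2.04, and -1.29 against the median gene), and Eed had 11.4 and 11.6 in Het and 2.72 and 2.78 in null lines. The summed FPKM of 7 ESC markers moved with some groups: it was 986 and 926 with siCtr and 551 and 339 with Mat2a siRNA, 821 and 1157 with water and 322 and 302 with ETO, 975 and 866 with DMSO and 365 and 425 with MYCi, and 421 to 898 in the other tables. That of 8 fibroblast markers was 7.34 and 8.70 in Het and 3.98 and 4.77 in null lines, 0.357 and 0.430 with siCtr and 2.01 and 1.24 with Mat2a siRNA, and at most 0.901 elsewhere, and the part of these markers in the results was not tested.

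In FPKM, which is per length, the small tRNA superfamily had the highest mean over loci of the 7 in every reference library, and the large B2, B4 and MIR superfamilies had the lowest in every library. ID stood above tRNA in both ETO and both MYCi libraries and in 1 library each with Mat2a siRNA and 50 µM SAM. In high-ΔΨm cells the mean FPKM over loci was 1.02 and 1.12 for tRNA, 0.752 and 0.782 for Deu, 0.282 and 0.283 for ID, 0.194 and 0.191 for Alu, 0.151 and 0.149 for MIR, 0.139 and 0.135 for B4 and 0.1195 and 0.118 for B2. Low-ΔΨm cells had 1.21 and 1.12 for tRNA, 0.825 and 0.757 for Deu, 0.192 and 0.181 for Alu and 0.113 and 0.109 for B2. In high-ΔΨm cells no neighbours in this order overlapped between duplicates, whereas B2 and B4 overlapped in Het lines, at 0.347 and 0.349 against 0.347 and 0.348. LFSINE_Vert was the family with the highest mean in each table, and B4A the one with the lowest.

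**Figure D1:**
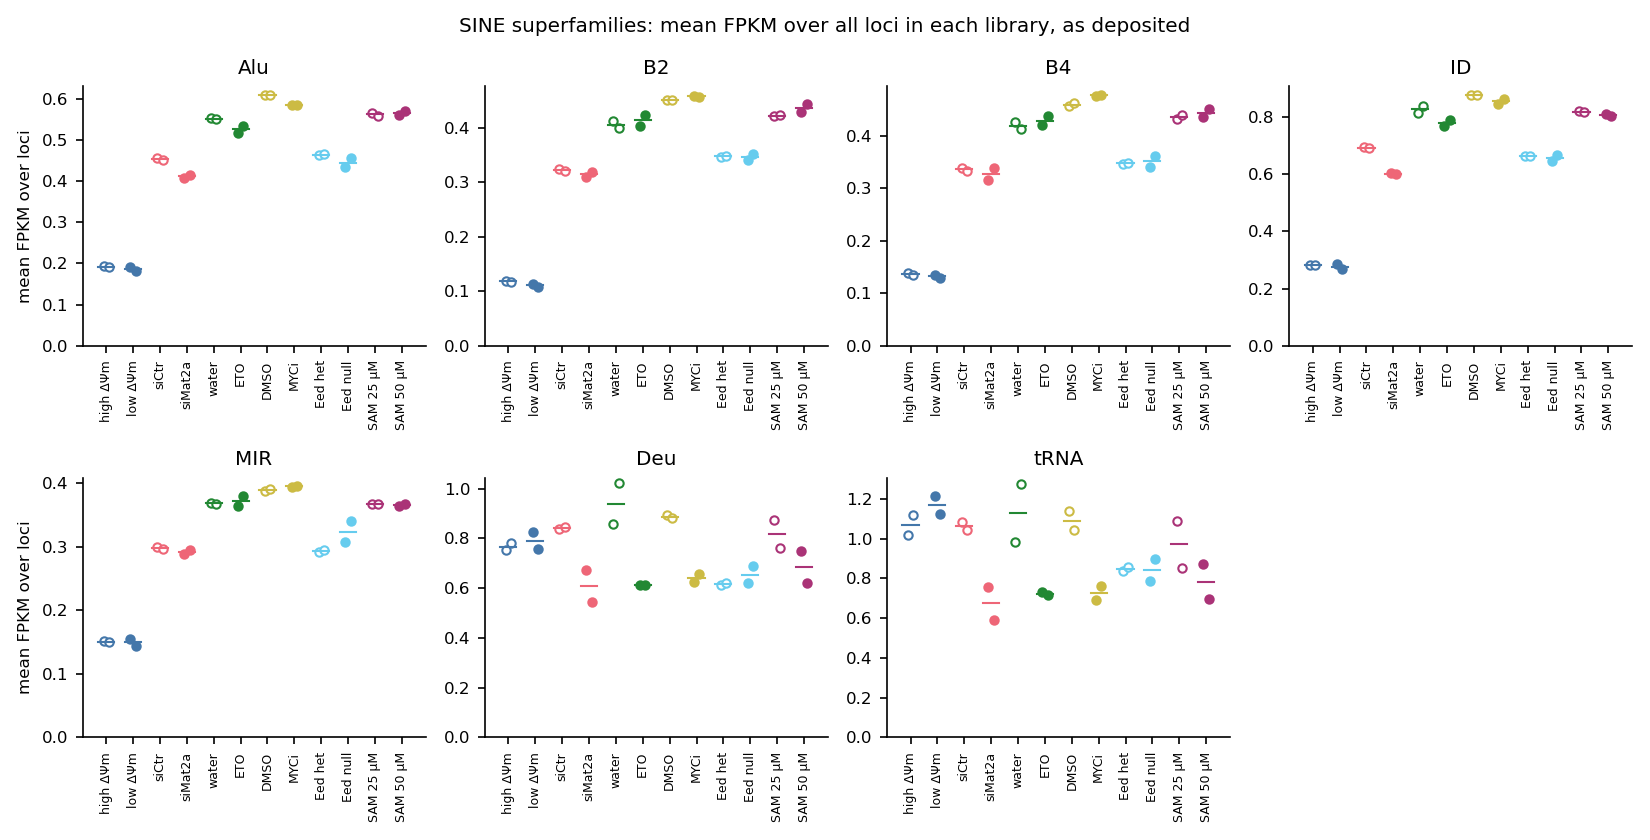
Mean FPKM over the loci of each SINE superfamily (1 panel each, axes from 0) in each of the 24 libraries, as deposited, with open points for reference and filled points for compared libraries, 1 colour per table and lines at the group means. In the Deu and tRNA panels the MYCi libraries, at 0.624 and 0.658 and at 0.690 and 0.764, lie below the DMSO libraries, at 0.893 and 0.884 and at 1.14 and 1.04; levels of different tables are not comparable.

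As deposited, the 5 large superfamilies moved little in any comparison. So did the median over all tested repeat loci, at -0.0005 (log2) after Mat2a siRNA, 0.076 with ETO and 0.077 with MYCi. The Deu and tRNA superfamilies were lower after Mat2a siRNA, ETO and MYCi in every library. Only the MYCi differences passed the test (limma on log2 of the mean FPKM over loci plus 0.01, Benjamini-Hochberg adjustment over all repeat superfamilies). There 2 of 7 SINE superfamilies were lower and none higher, beside 27.1% of all 59 superfamilies lower and 25.4% higher. Deu had 0.893 and 0.884 with DMSO and 0.624 and 0.658 with MYCi, and tRNA had 1.14 and 1.04 against 0.690 and 0.764. The groups did not overlap, with a log2 change of -0.47 (SE 0.04, adjusted p = 0.0180) for Deu and -0.58 (SE 0.08, adjusted p = 0.0186) for tRNA. Alu, at 0.609 and 0.610 against 0.585 and 0.586, differed by -0.06 (adjusted p = 0.0632), and B4 by 0.05 (adjusted p = 0.0911). Without MYCi replicate 2 only 1 superfamily passed, and without any other library of the table none.

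With ETO no superfamily of SINEs passed limma's test at an adjusted p under 0.05 (all repeats: 1.69% higher, 3.39% lower), and 2 had an unadjusted p under 0.05. Deu had 0.857 and 1.02 with water and 0.614 and 0.615 with ETO (log2 -0.60, SE 0.11, adjusted p = 0.0515), and tRNA 0.985 and 1.27 against 0.733 and 0.714 (log2 -0.62, SE 0.14, adjusted p = 0.0597). Neither pair of groups overlapped, and 2 superfamilies passed without H2O replicate 1 or without H2O replicate 2. After Mat2a siRNA none passed either (1.69% higher, 5.08% lower), with 4 at an unadjusted p under 0.05. Deu had 0.838 and 0.846 against 0.673 and 0.545 (log2 -0.47, SE 0.12, adjusted p = 0.0836), tRNA 1.09 and 1.04 against 0.759 and 0.589 (log2 -0.66, SE 0.14, adjusted p = 0.0748), and ID 0.695 and 0.690 against 0.605 and 0.599 (log2 -0.20, adjusted p = 0.0748). Lower values in every siRNA library were thus seen for these 3, and 3 superfamilies passed without siMat2a replicate 1 or without siMat2a replicate 2. In the sorted cells, the Eed lines and the SAM cells, where 0% of all superfamilies passed in each direction, limma called no SINE superfamily, and none had an unadjusted p under 0.05. MIR in the Eed lines, with 0.292 and 0.295 in Het and 0.307 and 0.341 in null lines, differed by 0.13 (adjusted p = 0.310). A test of the ETO effect minus the MYCi effect gave no call in 7 superfamilies (0% of all 59, no SINE superfamily at an unadjusted p under 0.05). The difference was -0.01 (SE 0.04) for Alu, -0.13 (SE 0.15) for Deu and -0.04 (SE 0.21) for tRNA.

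The large superfamilies stood higher against the median gene in the same 3 comparisons. After Mat2a siRNA 4 of 7 were higher, beside 59.3% of all superfamilies, with ETO 5, beside 71.2%, and with MYCi 5, beside 88.1%, so that the share among SINEs was near or below that of all repeats. Alu rose from 0.344 and 0.352 to 0.437 and 0.646 with Mat2a siRNA (log2 0.60, SE 0.26, adjusted p = 0.0422), and B2, B4 and MIR rose by 0.70 each. With ETO Alu rose from 0.473 and 0.366 to 0.670 and 0.707 (log2 0.71, SE 0.18, adjusted p = 0.0145), and with MYCi from 0.452 and 0.477 to 0.816 and 0.710 (log2 0.70, SE 0.16, adjusted p = 2.86e-05). B4 had the largest change of the 7 superfamilies with ETO and MYCi, 0.81 in each. Deu and tRNA passed in none of the 3: their log2 differences were 0.27 and 0.08 with Mat2a siRNA, 0.18 and 0.16 with ETO, and 0.29 (adjusted p = 0.0664) and 0.18 (adjusted p = 0.253) with MYCi. No superfamily passed after Mat2a siRNA without siCtr replicate 1 or without siCtr replicate 2, and none with ETO without either ETO library.

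On this scale no SINE superfamily was called in the sorted cells (0% of all in each direction), the Eed lines (3.39% higher, 1.69% lower) or the SAM cells (1.69% higher), and none had an unadjusted p under 0.05 in limma. Differences ranged from -0.13 to 0.08 in the sorted cells, from -0.17 to 0.02 in the Eed lines and from 0.13 to 0.48 in the SAM cells, where Alu had 0.425 and 0.547 at 25 µM and 0.545 and 0.795 at 50 µM, so that its groups overlapped. Scaled to the ERCC spike-in RNA of the sorted cells, of which 37 of 92 were usable, the superfamilies differed by -0.02 to 0.20 and none was called.

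**Figure D2:**
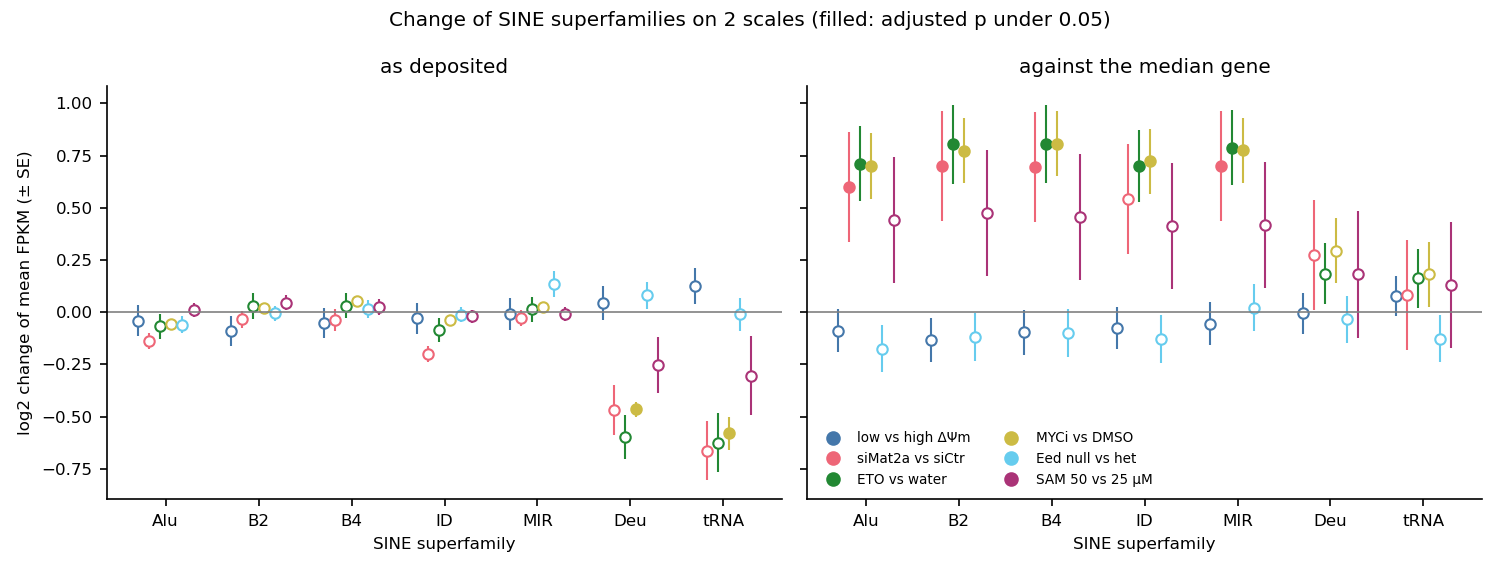
Log2 change of the mean FPKM over loci (points, with SE bars from limma) for the 7 SINE superfamilies in the 6 comparisons of 2 against 2 libraries, as deposited (left) and against the median gene (right), filled where the adjusted p was under 0.05. Against the median gene the 5 large superfamilies lie between 0.54 and 0.81 in the Mat2a, ETO and MYCi comparisons, and Deu and tRNA lie below them on both scales.

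The families repeated this split and showed it within superfamilies. As deposited, 9 of 37 SINE families were lower with MYCi and none higher (14% of all repeat families lower, 31.5% higher). They were AmnSINE1 and AmnSINE2 of Deu, LFSINE_Vert and MamSINE1 of tRNA, B1_Mm, B1_Mus1 and B1_Mus2 of Alu, B2_Mm1a of B2 and MIR3 of MIR. AmnSINE1 had 0.930 and 0.921 with DMSO and 0.610 and 0.653 with MYCi (log2 -0.55, SE 0.05, adjusted p = 0.0188). LFSINE_Vert had 1.26 and 1.14 against 0.757 and 0.841 (log2 -0.58, SE 0.09, adjusted p = 0.0216). B1_Mm, one of the youngest B1 families, had 0.384 and 0.380 against 0.338 and 0.340 (log2 -0.17, SE 0.03, adjusted p = 0.0220). The called B1 families fell by less than these old families, with -0.14 for B1_Mus2 and -0.13 for B1_Mus1, a difference that was not tested. B2_Mm1a, a young B2 family, fell by 0.20 (adjusted p = 0.0222), from 0.446 and 0.432 to 0.381 and 0.377, AmnSINE2 by 0.18 and MIR3 by 0.12. None of the 9 calls was left when any 1 library of the table was omitted.

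With ETO 2 families were lower (9.94% of all lower, 7.32% higher). AmnSINE1 had 0.885 and 1.08 with water and 0.610 and 0.612 with ETO, and MamSINE1 0.703 and 0.888 against 0.494 and 0.490. Both differed by -0.67 (SE 0.13), with adjusted p = 0.0351 and 0.0382, and neither was called when either ETO library was omitted, while 4 families were called without H2O replicate 1. After Mat2a siRNA limma called none (8.91% of all higher, 2.21% lower) and 9 had an unadjusted p under 0.05. LFSINE_Vert had 1.21 and 1.17 against 0.847 and 0.662 (log2 -0.66, adjusted p = 0.0645), and B1_Mm 0.288 and 0.282 against 0.242 and 0.241 (log2 -0.23, adjusted p = 0.0636). Both lay lower in each siRNA library, and 3 families were called without siMat2a replicate 1.

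In the sorted cells no SINE family was called by limma (0.363% of all higher, 0.218% lower) and 1 had an unadjusted p under 0.05. The Eed lines had no call (4.48% higher, 2.55% lower) and 2 such families, and the SAM cells had neither (0% in each direction). B2_Mm1a had 0.396 and 0.424 in Het and 0.482 and 0.523 in null lines (log2 0.29, adjusted p = 0.111), and MamSINE1 0.560 and 0.568 against 0.455 and 0.475 (log2 -0.27, adjusted p = 0.0776). Across the 37 families the median log2 difference was -0.04 in the sorted cells, -0.10 after Mat2a siRNA, -0.05 with ETO, -0.02 with MYCi, -0.02 in the Eed lines and 0.01 in the SAM cells. Over all repeat families it was -0.01, 0.11, 0.09, 0.13, 0.06 and 0.01.

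Relative to the median gene 27 families were higher after Mat2a siRNA, beside 63.9% of all repeat families, 34 with ETO, beside 80.1%, and 34 with MYCi, beside 87.8%. None was lower, beside 1.17%, 3.04% and 2.77% of all. The median over SINE families was 0.63, 0.74 and 0.74, below that over all repeat families, at 0.81, 0.83 and 0.85. The family MIR had the largest change with ETO (log2 0.88, adjusted p = 0.000529) and with MYCi (log2 0.86, adjusted p = 1.23e-07), and FAM after Mat2a siRNA (log2 0.84, adjusted p = 0.00538), followed by MIR at 0.80. B4A stood at 0.76, 0.85 and 0.85. AmnSINE1, LFSINE_Vert and MamSINE1 were the families without a call with ETO and with MYCi. After Mat2a siRNA these 3 and AmnSINE2, B1_Mm, B1_Mus1, B1_Mus2, ID4, MIR3 and B2_Mm1a were without one. Without either control library no family was called in the siRNA comparison, and without either ETO library none in the ETO comparison. In the sorted cells (0.363% of all higher, 0.508% lower), the Eed lines (3.38% higher, 2.76% lower) and the SAM cells (0.415% higher) limma called none, with 1, 1 and 0 families at an unadjusted p under 0.05. Without EedKO replicate 1, 1 family was called in the Eed lines.

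**Figure D3:**
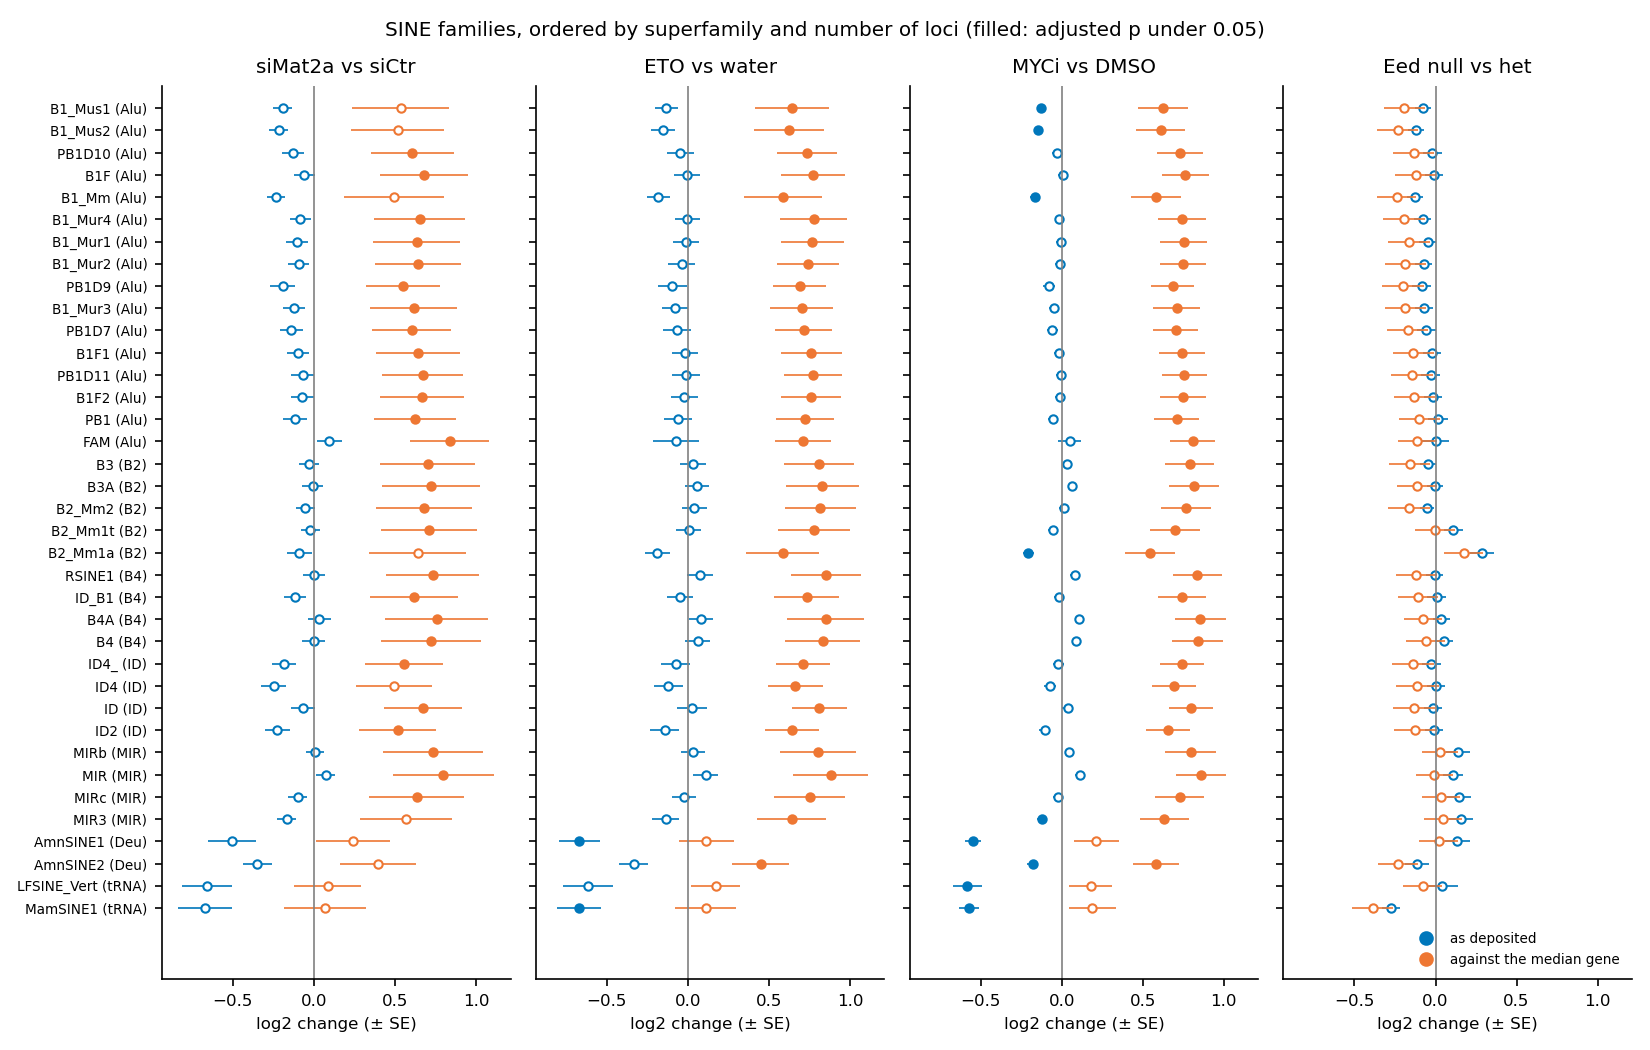
Log2 change with SE of all 37 SINE families in 4 comparisons, as deposited and against the median gene, with families ordered by superfamily and by number of loci and points filled where the adjusted p was under 0.05. With MYCi the 9 filled points as deposited lie between -0.58 and -0.12, and on the scale of the median gene 34 points are filled and AmnSINE1, LFSINE_Vert and MamSINE1 are open.

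A ratio of 2 families within a library has no scale, and such ratios, chosen after the values were seen and not tested, were lower for young against older B1 families in 4 of 6 tables. B1_Mm over PB1D10, an older Alu family, was 0.524 and 0.519 with siCtr and 0.489 and 0.480 with Mat2a siRNA, 0.514 and 0.510 with water and 0.465 and 0.463 with ETO, and 0.535 and 0.531 with DMSO and 0.484 and 0.483 with MYCi. It was 0.586 and 0.594 in Het and 0.548 and 0.544 in Eed-null lines, and the log2 differences were -0.11, -0.14, -0.14 and -0.11, with groups that did not overlap. In the sorted cells the ratio was 0.528 and 0.536 against 0.527 and 0.527, a gap smaller than the spread of the high-ΔΨm duplicates, and with SAM it was 0.521 and 0.496 against 0.507 and 0.509, with overlap. B1_Mus1 over B1F differed by -0.14, -0.13, -0.14 and -0.07 in the first 4 tables, while its groups overlapped in the sorted cells (0.747 and 0.749 against 0.755 and 0.746) and with SAM (0.742 and 0.699 against 0.715 and 0.703).

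MIR3 over MIR and ID4 over ID were lower too in the siRNA and inhibitor tables but not in the Eed lines. MIR3 over MIR differed by -0.25 after Mat2a siRNA, by -0.25 with ETO and by -0.24 with MYCi, and by 0.05 in the Eed lines. ID4 over ID differed by -0.18, -0.15 and -0.11, and by 0.02. B2_Mm1a over B3 took opposite directions: 1.11 and 1.19 in Het against 1.42 and 1.49 in null lines (log2 0.34), but 0.900 and 0.982 with water against 0.809 and 0.797 with ETO (log2 -0.23) and 0.945 and 0.906 with DMSO against 0.781 and 0.779 with MYCi (log2 -0.25). The superfamily MIR over Alu was 0.657 and 0.656 with siCtr and 0.708 and 0.710 with Mat2a siRNA (log2 0.11), and 0.631 and 0.634 in Het against 0.706 and 0.747 in null lines (log2 0.20). It differed by 0.08 with each inhibitor and by -0.02 with SAM.

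**Figure D4:**
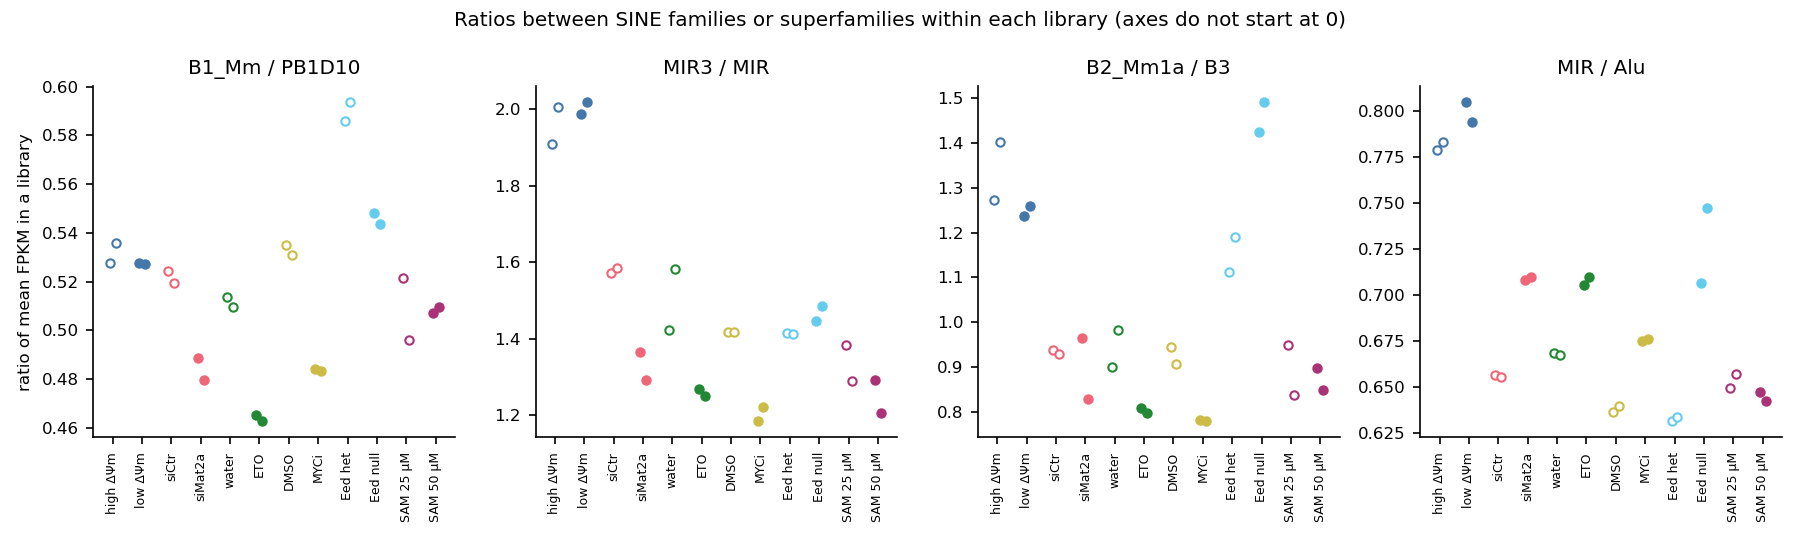
Ratios of mean FPKM over loci within each library for B1_Mm over PB1D10, MIR3 over MIR, B2_Mm1a over B3 and MIR over Alu, with open points for the reference and filled points for the compared libraries. B2_Mm1a over B3 lies at 1.11 and 1.19 in Het and 1.42 and 1.49 in Eed-null lines, and at 0.945 and 0.906 with DMSO and 0.781 and 0.779 with MYCi; the axes do not start at 0.

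A small number of loci held much of the Deu and tRNA values. The 1% of loci with the highest mean over the 4 libraries of a table, 18 in Deu and 17 in tRNA, held 42.4% to 68.9% of the Deu total and 50.2% to 76.4% of the tRNA total in the siRNA and inhibitor tables, and 80.9% to 83.1% and 82.5% to 84.5% in the sorted cells. The mean FPKM of the 18 Deu loci was 53.1 and 53.8 with siCtr and 38.3 and 24.01 with Mat2a siRNA, 48.5 and 66.5 with water and 26.4 and 25.1 with ETO, and 52.0 and 50.5 with DMSO and 25.01 and 29.1 with MYCi. Of the 18, 18, 17 and 15 were lower. The other Deu loci had 0.280 and 0.280 against 0.270 and 0.294, 0.348 and 0.322 against 0.338 and 0.352, and 0.347 and 0.354 against 0.363 and 0.354, so that their groups overlapped or nearly so.

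The log2 difference of the highest Deu loci was thus -0.82, -1.14 and -0.93 and that of the others 0.01, 0.05 and 0.03. The 17 tRNA loci differed by -1.0, -0.98 and -0.996, from 78.9 and 75.0 to 48.1 and 30.8 after Mat2a siRNA, from 62.7 and 89.0 to 39.0 and 36.7 with ETO and from 76.1 and 67.7 to 32.9 and 39.3 with MYCi, and the others by 0.02, -0.03 and 0.05. Without these loci, Deu against the median gene stood at 0.74, 0.82 and 0.78, close to the large superfamilies. The highest loci were chosen with the values of both groups, so no test of them or of the rest is used.

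The same division ran through the large superfamilies. The highest 5746 Alu loci had a mean FPKM of 14.3 and 14.4 with siCtr and 10.2 and 8.48 with Mat2a siRNA, and their log2 difference was -0.63 there, -0.46 with ETO, -0.32 with MYCi and -0.27 in the Eed lines. The other Alu loci differed by 0.04, 0.05, 0.03 and 0.01. In MIR the highest 1205 loci differed by -0.54, -0.43, -0.32 and -0.09 and the others by 0.23, 0.22, 0.18 and 0.24. Outside the top 1%, MIR was therefore the superfamily with the largest difference among the 7 in each of these tables. The removed loci were picked with the values of both groups, so no test of the rest is used.

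Sorted by level, all SINE loci formed a gradient. In the Mat2a table loci with a mean FPKM of up to 0.1 differed by 0.94 (log2, as deposited), those from 0.1 to 0.3 by 0.43, from 0.3 to 1 by 0.17, from 1 to 3 by -0.01, from 3 to 10 by -0.23, from 10 to 30 by -0.62 and the 627 loci over 30 by -1.05. The ends were 0.54 and -0.96 with ETO, 0.67 and -0.71 with MYCi, 0.65 and -0.24 in the Eed lines and 0.22 and -0.35 with SAM. In the sorted cells no such gradient was seen, with -0.05 at the low end and 0.06 at the high end. The share of SINE loci above 0 moved with it: it was 33.3% and 34.1% with siCtr and 41.2% and 44.8% with Mat2a siRNA, 39.2% and 35.2% with water and 43.2% and 45.1% with ETO, 35.3% and 37.3% with DMSO and 43.1% and 42.2% with MYCi, and 40.9% and 40.8% in Het and 45.0% and 49.5% in null lines, against 30.1% and 26.9% in high-ΔΨm and 28.9% and 26.1% in low-ΔΨm cells and 36.9% and 38.9% at 25 µM and 39.1% and 42.0% at 50 µM SAM. Repeat loci of other classes moved in the same way, from 17.6% and 19.9% to 25.5% and 28.2% with Mat2a siRNA, from 22.8% and 19.5% to 24.997% and 26.6% with ETO, from 18.4% and 19.8% to 24.96% and 24.2% with MYCi and from 23.5% and 23.3% in Het to 26.4% and 29.7% in null lines. The estimated divisor moved with it too, since 1 fragment on 150 bases is worth an FPKM of 0.153 and 0.156 with siCtr and 0.106 and 0.0765 with Mat2a siRNA. The part of this divisor or of sequencing depth in the gradient was not tested. A locus of that length with an FPKM of up to 0.1 thus holds less than 1 fragment per siCtr library.

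**Figure D5:**
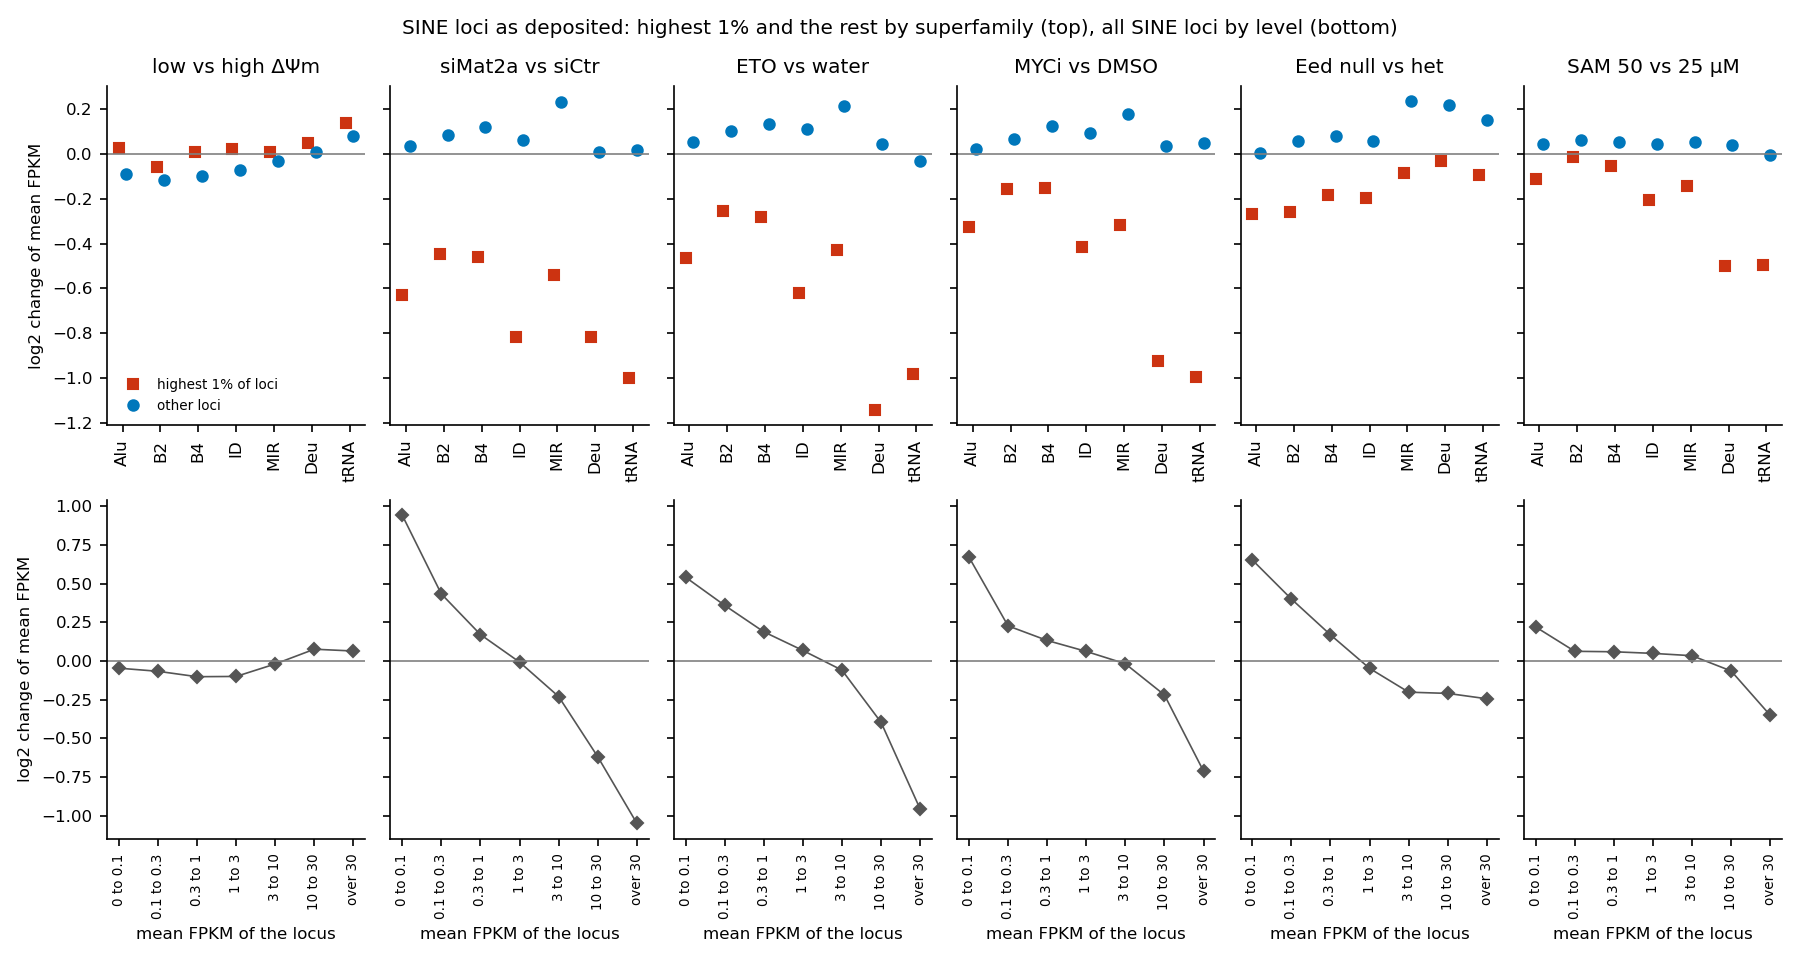
Top row: log2 change of the mean FPKM, as deposited, of the highest 1% of loci (squares) and the other loci (circles) of each SINE superfamily in the 6 comparisons. Bottom row: the same change for all SINE loci grouped by their mean FPKM over the 4 libraries, which runs from 0.94 at 0 to 0.1 FPKM to -1.05 over 30 FPKM in the Mat2a table and stays between -0.10 and 0.08 in the sorted cells.

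Single loci at the top of the list, chosen after the values were seen and given without a test, stood far above the mean of their superfamily. They are part of that mean. ID4-2873397 had an FPKM of 1096 and 1157 with siCtr and 569 and 336 with Mat2a siRNA, 884 and 1266 with water and 398 and 334 with ETO, and 1055 and 964 with DMSO and 401 and 513 with MYCi. AmnSINE1-3871693 was lower in the same tables, with 235 and 234 against 183 and 106, 245 and 370 against 123 and 112 and 250 and 226 against 93.1 and 119, but had 83.7 and 95.7 in Het and 124.5 and 151 in Eed-null lines. LFSINE_Vert-2905515 had 154 and 159 against 44.5 and 29.5 with Mat2a siRNA, and 68.1 and 70.0 in Het against 112 and 132 in null lines. Both old loci were thus lower in every siRNA library and higher in every Eed-null library. B1_Mus1-1449120 had 407 and 427 against 160 and 72.1 with Mat2a siRNA. PB1D10-4615557, the Alu locus with the highest mean, had 110 and 132 in high-ΔΨm and 203 and 182 in low-ΔΨm cells, while AmnSINE1-3871693 had 634 and 663 against 686 and 613 there. Which transcripts run through these loci is not given by their names.

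Tested one by one on log2(FPKM + 0.5), as deposited, few loci passed outside the ETO comparison. Of 217735 SINE loci tested with ETO, 2517 were higher and 1824 lower (1.89% and 1.4% of all repeat loci tested). MYCi had 139 higher and 254 lower of 229364 (0.166% and 0.311%), the Eed lines 172 and 145 of 180474 (0.227% and 0.198%) and low-ΔΨm cells 30 and 0 of 49609 (0.121% and 0.00956%). Limma called none of 166838 after Mat2a siRNA and none of 214553 with SAM (0% of all repeat loci in each), where 30190 and 7225 had an unadjusted p under 0.05. By superfamily, ETO gave 880 higher and 842 lower in Alu, 680 and 368 in B4, 470 and 290 in B2, 271 and 158 in MIR, 210 and 152 in ID, 3 and 8 in Deu and 3 and 6 in tRNA. These were 0.967% and 0.925% of the tested loci in Alu, 1.33% and 0.72% in B4 and 0.949% and 0.586% in B2. In MIR they were 2.15% and 1.25%, in ID 1.6% and 1.16%, in Deu 1.54% and 4.1% and in tRNA 1.73% and 3.47%. The filter bears on these counts, since a locus that reached an FPKM of 1 in only 1 of the groups had to differ: this held for 1892 of the higher and 493 of the lower loci with ETO, 86 and 22 with MYCi, 100 and 82 in the Eed lines and 22 of the 30 in low-ΔΨm cells. Called loci that reached it in each group numbered 625 higher and 1331 lower with ETO, 53 and 232 with MYCi, 72 and 63 in the Eed lines and 8 higher in low-ΔΨm cells. The balance with ETO thus turned, and a filter at an FPKM of 3 turned it there and in the Eed lines, to 2835 higher and 4041 lower and to 1259 and 2176, so no direction of SINE loci as a whole is read from the calls. With MYCi Alu had 39 higher and 132 lower (0.0406% and 0.137% of those tested), ID 10 and 30 (0.0743% and 0.223%) and B4 39 and 37 (0.0723% and 0.0686%). B2 had 30 and 23 (0.0571% and 0.0438%) and MIR 21 and 28 (0.162% and 0.216%). In the Eed lines MIR had 18 higher and 5 lower of 10484 tested. These were 0.172% and 0.0477%, against 0.227% and 0.198% of all repeat loci there. These counts changed widely when 1 library was omitted, a fit that leaves a lone library in its group. None was left without any 1 library of the sorted cells or Eed lines, without either ETO library or without either MYCi library. There were 11228 without H2O replicate 1 and 914 without H2O replicate 2, 23 without DMSO replicate 1 and 1361 without DMSO replicate 2, and, after Mat2a siRNA, 1976 without siCtr replicate 1, 1455 without siCtr replicate 2 and 845 without siMat2a replicate 1.

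The calls moved upwards against the median gene. They became 5551 higher and 166 lower after Mat2a siRNA (5.9% and 0.251% of all repeat loci), 29976 and 1177 with ETO (15.8% and 1.03%) and 43756 and 673 with MYCi (21.4% and 0.695%). The Eed lines had 384 and 419 (0.471% and 0.487%), the sorted cells 20 and 0 (0.0832% and 0.00669%) and the SAM cells 2 and 0 (0.012% and 0.000471%).

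The loci with the largest called changes were nearly off in 1 group. All of those named here except B4A-2263150 and B1_Mus2-807908 stayed under an FPKM of 1 in both libraries of that group and so were tested only because the other group was high, and their values are a description with no test. B1_Mus1-1040854 had an FPKM of 0.138 and 0.062 in high-ΔΨm and 39.1 and 32.8 in low-ΔΨm cells. B1_Mus1-1040805 had 0.143 and 0.097 against 27.6 and 22.4, and B1F-3183053 had 0 and 0.269 against 20.6 and 15.0. The first 2 of these lie close together in the catalogue.

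In the ETO table, MIR3-3702054 was listed at 0 in both water libraries and had 14.2 and 15.3 with ETO, B3A-3702103 had 0 and 0 against 11.45 and 11.49, and PB1D7-3702081 had 0 and 0 against 10.9 and 10.6. B1_Mur4-4160805 went from 10.9 and 12.9 to 0 and 0, PB1D11-3766251 from 14.2 and 15.1 to 0.354 and 0, and PB1D10-3766242 from 9.73 and 9.32 to 0 and 0.113. MIR3-3702054, B3A-3702103 and PB1D7-3702081 lie close together in the catalogue, as do PB1D11-3766251 and PB1D10-3766242, so these are not read as separate places. PB1D10-3766242 was low with MYCi as well, at 6.79 and 6.03 against 0.219 and 0.295. There B1_Mus1-1703892 had 0.641 and 0.173 with DMSO and 18.1 and 17.2 with MYCi, MIRc-1703852 had 0.770 and 0.932 against 19.8 and 14.5 and RSINE1-1704075 had 0 and 0 against 10.9 and 4.02. B1_Mus1-1703892 and MIRc-1703852 lie close together as well. MIR-2655692 had 8.37 and 7.35 against 0.706 and 0.570. B4A-2263150, which was above the minimum in each group, fell from 20.3 and 17.4 to 2.03 and 2.502 (log2 -2.81, adjusted p = 0.0432).

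In the Eed lines B1_Mus2-807908, above the minimum in each group, rose from 1.72 and 2.23 to 44.1 and 47.4 (log2 4.23, SE 0.19, adjusted p = 0.0491). B1_Mur4-2605326 had 0.3004 and 0 in Het and 10.4 and 14.3 in null lines, and ID_B1-2279393 had 0 and 0 against 6.54 and 8.59. B1_Mus1-1948290 had 33.5 and 29.2 against 0.057 and 0.497, B4A-410634 had 13.1 and 16.0 against 0.402 and 0.248 and RSINE1-3978882 had 11.3 and 11.3 against 0.188 and 0.135.

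Called SINE loci often stood next to other called repeat loci. Catalogue numbers follow the genome, since 66.6% of the 2600 MERVL-int loci had 1 of 2667 MT2_Mm loci, the ends of the same virus, within 3 numbers, against 0.319% of all repeat loci. Among SINE loci called higher in low-ΔΨm cells whose neighbour by number was tested, 60.7% (17 of 28) had a neighbour called the same way. This compares with 0.126% of all tested SINE loci, and the neighbour could be of any repeat class. The shares were 54.1% for higher and 57.9% for lower loci with ETO (1.73% and 1.75% of all), 37.1% and 46.1% with MYCi (0.13% and 0.436%), and 42.3% and 46.3% in the Eed lines (0.161% and 0.21%). Called loci are therefore not independent of each other, and a count of loci is larger than the count of places they come from. The filter on loci bears on these shares as well, and no test was run on them.

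Genes that act on SINEs or their RNA, and a set of small RNAs, were read from 4 lists. RNA polymerase III transcription, the machinery that starts at A and B boxes, had 26 members, of which 14 were lower after Mat2a siRNA, 23 with ETO, 26 with MYCi and 10 in the Eed lines, and none higher, as deposited. The share of all genes lower was 36.8%, 51.3%, 57.8% and 12.1%, and the share higher 13.1%, 13.9%, 7.89% and 24.2%. Low-ΔΨm cells had 2 higher and 1 lower (14% and 6.45% of all genes), and SAM none (0.389% and 0.493%). The list's median log2 change was -0.97, -1.25, -1.14 and -0.25 in the first 4, against -0.63, -0.66, -0.65 and 0.11 over all genes. Against the median gene 2 were higher and 11 lower after Mat2a siRNA (23% and 19.8% of all genes), 2 and 20 with ETO (30.9% and 31.2%), 3 and 19 with MYCi (25.4% and 28.4%), none and 17 in the Eed lines (25.3% and 22.5%) and 3 and 6 in low-ΔΨm cells (19.4% and 17%).

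Polr3g, the subunit of RNA polymerase III that pluripotent cells use, had an FPKM of 29.2 and 40.8 with water and 7.48 and 7.55 with ETO (log2 -2.18, SE 0.30, adjusted p = 5.77e-12; against the median gene -1.39, adjusted p = 0.00036). It had 32.4 and 30.7 with DMSO and 8.83 and 10.3 with MYCi (log2 -1.71, adjusted p = 3.65e-05), 26.8 and 26.9 with siCtr and 15.8 and 8.87 with Mat2a siRNA (log2 -1.18, adjusted p = 0.0175), and differed by -0.21 in the Eed lines (adjusted p = 0.141) and by -0.27 in low-ΔΨm cells (adjusted p = 0.216). Its changes against the median gene were -0.95 with MYCi and -0.43 after Mat2a siRNA (adjusted p = 0.0392). Maf1, the repressor of RNA polymerase III, was lower as well, with log2 changes of -1.13 after Mat2a siRNA, -0.90 with ETO and -1.11 with MYCi (against the median gene -0.38, -0.11 with adjusted p = 0.132, and -0.35), and differed by 0.28 in low-ΔΨm cells (adjusted p = 0.213). In low-ΔΨm cells Polr3d, another subunit, rose from 3.86 and 4.61 to 9.18 and 8.15 (log2 1.02, adjusted p = 0.000524), and Gtf3c1, which binds the B box as part of TFIIIC, from 10.996 and 11.9 to 20.2 and 19.2 (log2 0.78, adjusted p = 0.00238). In the Eed lines Tbp and Brf2 fell by 0.76 and 0.75.

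Of 18 chromatin and silencing factors of SINEs, 11 were lower after Mat2a siRNA, 17 with ETO, 18 with MYCi and 8 in the Eed lines (36.8%, 51.3%, 57.8% and 12.1% of all genes lower). In the Eed lines 1 was higher (24.2% of all genes). Low-ΔΨm cells had 1 lower (6.45% of all genes), Dnmt3b, a DNA methyltransferase, at 15.6 and 17.2 against 11.3 and 10.7. Against the median gene the lower counts were 10, 15, 15, 15 and 8 (19.8%, 31.2%, 28.4%, 22.5% and 17% of all genes), and the higher counts 1, 1, 1, 1 and 2 (23%, 30.9%, 25.4%, 25.3% and 19.4%). Adnp, which with its partners holds CTCF off B2 copies, had 32.0 and 32.0 with siCtr and 19.0 and 11.6 with Mat2a siRNA (log2 -1.10, adjusted p = 0.028) and changed by -1.08 with ETO, -0.86 with MYCi and -0.35 in the Eed lines (adjusted p = 0.0455). Relative to the median gene its changes were -0.35 after Mat2a siRNA, -0.29 with ETO and -0.46 in the Eed lines, and with MYCi it differed by -0.09 (adjusted p = 0.139). In low-ΔΨm cells it differed by 0.03. Ctcf itself had 36.8 and 49.8 with water and 14.7 and 14.7 with ETO (log2 -1.53, adjusted p = 3.16e-06) and changed by -1.28 with MYCi and -0.44 in the Eed lines (adjusted p = 0.03), and differed by -0.94 after Mat2a siRNA (adjusted p = 0.0654); against the median gene these 4 values were -0.74, -0.52, -0.55 and -0.18, the last with adjusted p = 0.26. Uhrf1, which carries DNA methylation through replication, fell by 1.73 after Mat2a siRNA, 2.47 with ETO and 1.74 with MYCi (against the median gene by 0.97, 1.68 and 0.97), and Cbx3, a heterochromatin protein, by 1.85 after Mat2a siRNA (by 1.11 against the median gene). Hdac1, a histone deacetylase, rose by 1.35 in the Eed lines.

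Of the 17 proteins of double-stranded, edited and Alu-like RNA, 16 or 17 were tested, and 8, 15 and 15 were lower after Mat2a siRNA, with ETO and with MYCi (36.8%, 51.3% and 57.8% of all genes). As deposited 1 was higher with ETO and 1 in low-ΔΨm cells (13.9% and 14% of all genes). None was higher after Mat2a siRNA or with MYCi (13.1% and 7.89%). Stau2, which binds double-stranded RNA, rose with ETO from 0.822 and 1.09 to 2.76 and 2.65 (log2 1.42, adjusted p = 2.83e-06; 2.16 against the median gene) and in low-ΔΨm cells by 0.95. The Eed lines had 7 higher and 5 lower (24.2% and 12.1% of all genes). Ddx58, an RNA sensor, fell there from 6.12 and 6.59 to 1.45 and 1.55 (log2 -2.01, adjusted p = 0.00125). Ifih1, another sensor, had 0.0591 and 0.0676 in Het and 0.296 and 0.369 in null lines and was tested only because the null lines reached the minimum of 0.1. Against the median gene 3, 12, 10 and 7 were lower after Mat2a siRNA, with ETO, with MYCi and in the Eed lines (19.8%, 31.2%, 28.4% and 22.5% of all genes). In the same order 0, 1, 1 and 7 were higher (23%, 30.9%, 25.4% and 25.3%).

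The list of 10 small RNAs also holds RNAs that are not relatives of SINEs, such as Y RNAs. Tested as 10 or 11 gene IDs, it had 2 lower and 1 higher after Mat2a siRNA, 9 lower with ETO, 7 with MYCi and 2 in low-ΔΨm cells (36.8%, 51.3%, 57.8% and 6.45% of all genes lower). The share of all genes higher after Mat2a siRNA was 13.1%. Against the median gene 2, 6, 3 and 1 were lower (19.8%, 31.2%, 28.4% and 17% of all genes), and 1 was higher after Mat2a siRNA (23% of all genes). Rny1, a Y RNA, fell with ETO from an FPKM of 19.0 and 31.6 to 3.05 and 2.995 (log2 -2.98; -2.20 against the median gene) and in low-ΔΨm cells from 5.46 and 3.93 to 2.09 and 0.635 (log2 -1.90, adjusted p = 0.00312; against the median gene adjusted p = 0.0562). Bc1, the relative of ID elements, had an FPKM of at most 0.597 in any library, and its largest values came from the Eed lines, where it differed by -0.05. RNA was extracted with the RNeasy mini kit, and how far it keeps RNAs as short as Bc1, at 168 bases, was not tested. Low values of such short RNAs are therefore not read as low expression. SAM gave no call in any of the 4 lists by limma at an adjusted p under 0.05. Over the 4 lists together the 36 calls after Mat2a siRNA became 2 and 1 without siCtr replicate 1 and replicate 2 and 67 without siMat2a replicate 1, the 65 with ETO became 14 and 10 without ETO replicate 1 and replicate 2, and the 31 in the Eed lines became 5 and 3 without Het replicate 1 and replicate 2 and 19 without EedKO replicate 1.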

How the data were processed

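The deposited FPKM values were calculated by the authors with edgeR, normalisation factors not stated, from total RNA of 24 libraries. Per the labels and methods, reads were trimmed with Trim Galore and cutadapt, aligned to mm10 with TopHat2 2.1.1, freed of duplicates with SAMtools 1.9 and counted with featureCounts without strand, in fractions for several places or features, over Ensembl genes, NONCODE transcripts and HOMER 4.10 repeat loci. A SINE fragment is thus divided among alike copies, and a transcript running through a locus counts for it.

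Here the mean FPKM over loci of each repeat family (at least 10 loci, mean of at least 0.01) or superfamily was tested on log2(value + 0.01), loci that reached an FPKM of 1 in 2 or more libraries on log2(FPKM + 0.5), and genes that reached 0.1 in 2 on log2(FPKM + 0.1). The test was limma (3.58.1, R 4.3.3), fitted to the 4 libraries of a comparison, with an intensity trend except for superfamilies, and Benjamini-Hochberg adjustment at 0.05 over all features of a kind. Fold changes on these scales understate those of low values. An exact permutation test of 2 against 2 cannot go below p = 0.333. Named were all superfamilies, the 3 largest families of each, called families (up to 3 per direction), up to 3 called loci per direction with a group mean of at least 5, and from the gene lists up to 3 called genes per direction with Adnp, Ctcf, Polr3g and Maf1. The members, lists and tests were chosen with earlier results of these data known. The tests were checked on simulated data. Other scales, pseudocounts, filters, a replicate block and single omitted libraries were tried. Figures were drawn with matplotlib 3.10.9 in Python 3.11.15. The sequence and values of 1 small RNA are not reported here.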

Additional observations from a re-analysis of the deposited data

How the results depend on the processing

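Limits: with 2 libraries per group, a locus of few fragments and copies that share fragments, counts of calls moved widely. Where 1 library was omitted, the lone library of its group was assumed to vary like the others. Combinations of the median gene with a second choice, the ERCC scale, ratios and highest loci were chosen after seeing the data. Called directions of SINE families and superfamilies turned with the median gene and without the top 1% of loci, and not with another pseudocount or filter.

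With all 24 libraries in 1 fit, 1 SINE family was called higher in the sorted cells as deposited. Lower were 19 after Mat2a siRNA and 11 with ETO, and the Eed lines had 2 higher and 1 lower. Superfamilies in these last 3 comparisons were 4 lower, 3 lower and 1 higher. The shares of all repeats in this fit and against the median repeat family are not given, so these counts are not read as particular to SINEs. Against the median repeat family the SINE families called were 0 with ETO, 15 with MYCi, all lower, and 1 in the Eed lines, lower. On the scale of the median gene they were 27, 34 and 34 after Mat2a siRNA, with ETO and with MYCi, superfamilies 4, 5 and 5, loci 5717, 31153, 44429, 803 in the Eed lines and 2 with SAM, and list genes 24 (sorted cells) and 47 (Eed lines). Without the top 1% of loci 0 families passed with ETO, and 1 superfamily passed after Mat2a siRNA as deposited and 7 against the median gene. The top loci were picked with the values of both groups, so these counts only describe the loci that were left. With a pseudocount of 0.05, 1 superfamily passed with ETO.

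Loci called at an FPKM of at least 0.5 numbered 8 for the sorted cells and 0 for ETO, MYCi and Eed, and at least 3 gave 131, 6876, 3876 and 3435 there and 1639 after Mat2a siRNA, with more lower than higher loci for ETO, MYCi, Eed and Mat2a siRNA. A pseudocount of 0.1 gave 8, 0, 0 and 0, and 1 gave 7429 with ETO, 919 with MYCi and 2803 in the Eed lines. List genes without a filter were 2 in the sorted cells and 0 after Mat2a siRNA.

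Same-numbered samples did not deviate together in every table (r of -0.10 to 0.30, and of 0.28 for families and 0.30 for genes in the SAM table), so the numbers were not taken to pair them. With a replicate block, families were 3 after Mat2a siRNA against the median gene, 0 with ETO and 0 with MYCi as deposited, and 34 with SAM against the median gene, where 5 superfamilies passed, all higher at 50 µM. The block left 1 superfamily with MYCi, 15 loci in the sorted cells, 98 after Mat2a siRNA, 2041 with ETO, 0 with MYCi and 0 in the Eed lines, and 4 list genes in the sorted cells, 16 after Mat2a siRNA and 61 with SAM.

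Omitting 1 library at a time, families ranged from 0 to 3 (Mat2a siRNA), 0 to 4 (ETO) and 0 to 0 (MYCi) as deposited, and 0 to 35, 0 to 34, 32 to 35 and 0 to 1 (Eed) against the median gene. Superfamilies ranged from 0 to 3, 0 to 2 and 0 to 1, and 0 to 6, 0 to 5 and 5 to 6. Loci ranged from 0 to 0 (sorted cells and Eed), 0 to 1976, 0 to 11228 and 0 to 1361, and list genes from 5 to 9 (sorted cells), 1 to 67, 10 to 68, 58 to 66 and 3 to 24 (Eed).

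After division by the median gene some directions turned. After Mat2a siRNA the log2 differences became 0.60 for Alu, 0.70 for B2, B4 and MIR, 0.68 for B2_Mm2, 0.70 for B3, 0.72 for B3A, 0.67 for ID, 0.56 for ID4_, 0.62 for ID_B1, 0.63 for MIRc, 0.61 for PB1D10 and 0.73 for RSINE1. With ETO they became 0.71 for Alu, 0.70 for the ID superfamily, 0.11 for AmnSINE1 and MamSINE1, 0.45 for AmnSINE2, 0.64 for B1_Mus1, 0.62 for B1_Mus2, 0.66 for ID4, 0.71 for ID4_, 0.73 for ID_B1, 0.75 for MIRc and 0.74 for PB1D10. With MYCi they became 0.70 for Alu, 0.72 for the ID superfamily, 0.29 for Deu, 0.18 for tRNA, 0.21 for AmnSINE1, 0.58 for AmnSINE2, 0.62 for B1_Mus1, 0.61 for B1_Mus2, 0.69 for ID4, 0.74 for ID4_ and ID_B1, 0.18 for LFSINE_Vert, 0.73 for MIRc and PB1D10 and 0.19 for MamSINE1. Without the top 1% of loci, as deposited, MIR became 0.22 after Mat2a siRNA, AmnSINE1 0.045 and MamSINE1 0.23 with ETO, and with MYCi the ID superfamily 0.094, Deu 0.034, tRNA 0.047, AmnSINE2 0.22, LFSINE_Vert 0.037, MIRc 0.15 and MamSINE1 0.088. The cause of these changes was not tested beyond the construction of each setting.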

Other observations

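SINE loci were also read by their distance, in catalogue numbers, from the nearest MERVL-int or MT2_Mm locus. Both are parts of a virus whose RNA marks 2-cell-like cells. After Mat2a siRNA, tested SINE loci 1 to 3 numbers away had a median log2 difference of 0.38 as deposited (383 loci), those 4 to 10 away 0.22 (914 loci) and those more than 100 away -0.03. In the Eed lines the medians were 0.44 (514 loci), 0.16 (1081 loci) and -0.07. With ETO they were 0.15 for the nearest and 0.05 for the farthest, with MYCi 0.15 and 0.04, with SAM 0.03 and 0.04 and in the sorted cells 0.03 (122 loci) and -0.08, with 0.07 for those 4 to 10 away (280 loci). There 0, 1, 3, 5 and 21 loci called higher lay 1 to 3, 4 to 10, 11 to 30, 31 to 100 and more than 100 numbers away, or 0%, 0.357%, 0.447%, 0.213% and 0.0455% of those tested. The summed FPKM of 6 markers of 2-cell-like cells was 16.0 and 15.0 with siCtr and 200.6 and 118 with Mat2a siRNA, 54.9 and 57.0 in Het and 151 and 159 in Eed-null lines, and 0.584 and 0.771 in high-ΔΨm against 92.1 and 82.3 in low-ΔΨm cells. With ETO the sum was 4.47 and 6.81 against 0.620 and 1.06, with MYCi 5.55 and 5.22 against 1.996 and 2.32, and with SAM 33.0 and 22.1 against 25.2 and 15.4. These medians are a description with no test, and the part of the markers in them was not tested.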
